A study of Drosophila melanogaster with 6 samples.

Results

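Heterochromatin is the compact chromatin around the centromeres and, in the fly, along most of the Y chromosome. It is rich in satellite repeats and remnants of transposable elements, is marked by methylated histone H3 lysine 9 and the protein HP1, and holds few genes. Release 5 of the Drosophila melanogaster genome gives mapped parts of it as separate sequences whose names end in Het. They are kept apart from the arms (2L, 2R, 3L and 3R, the X and the small chromosome 4). The regions described here are the 340 ChIP-seq peaks on 6 such heterochromatin sequences (2LHet, 2RHet, 3LHet, 3RHet, XHet and YHet), chosen by the sequence name alone, out of 9881 peaks in the list. The arms hold 2355 peaks of the list (23.8%), so most of the whole list lies on neither kind of sequence.

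White prepupae, animals at the onset of metamorphosis, were studied with 3 ChIP libraries and 3 input libraries, the input being genomic DNA that had not been precipitated. The ChIP used a crude mouse monoclonal antibody, listed as tgo mouse Crews with tango as its target, and its antigen is listed as unknown. Tango is the fly counterpart of ARNT, a bHLH-PAS protein that binds DNA in pairs with other bHLH-PAS proteins, while the titles carry the name TCF, in the fly the nuclear effector of Wingless signalling. The labels do not settle which name holds, so no protein is given for the peaks. Both groups are of the strain Y cn bw sp. Their genotype carries y[1] and oc[R3.2], also Gr22b[1] and Gr22d[1], with cn[1] and CG33964[R4.2], bw[1] and sp[1], and further LysC[1] and lab[R4.2], MstProx[1] and GstD5[1], and Rh6[1]. The chromatin was from whole prepupae, as far as the labels say, so the cell types behind a peak are not resolved.

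All 6 libraries are represented by 1 peak list with a start, an end and a score from the authors' peak caller for each peak. There are no values per library, so read depth is unknown and no spread between replicates can be set beside any value. Peaks lie next to each other and are not replicates. No test over peaks was therefore made, and the comparisons with the arms are descriptions. Shares and medians carry 95% intervals, which reflect counting error alone and take each peak as independent. The labels and the list do not say how reads matching several places were treated, and the part of this in the results was not tested. No release 5 sequence or annotation was used, so no base sequence, repeat or gene is given for a peak.

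The heterochromatin peaks were unevenly divided among the sequences. 2RHet held 140 of the 340 peaks (41.2%, interval 36.1 to 46.5%), 3LHet held 86 (25.3%, interval 21.0 to 30.2%) and 3RHet 85 (25%, interval 20.7 to 29.9%). 2LHet held 25 (7.35%, interval 5.03 to 10.6%), and XHet and YHet held 2 each. The peaks of the 3 fullest sequences thus make up most of what follows, and XHet and YHet are given peak by peak.

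Density was measured over the stretch between the outermost peaks of a sequence. 2RHet carried 42.7 peaks per Mb over 3.28 Mb, against 20.1 per Mb on the arm 2R. The 2.38 Mb span of 3LHet had 36.1 per Mb, against 21.9 on 3L, and the 2.26 Mb span of 3RHet had 37.6 per Mb, against 17.2 on 3R. On 2LHet the 25 peaks fell within only 0.237 Mb, or 106 per Mb, against 22.1 on 2L. In each of these 4 pairs the heterochromatin sequence was thus the denser one. The spans include assembly gaps, whose lengths were not used here. The peaks covered 9.14% of the span of 2LHet, 3.10% of 2RHet, 2.55% of 3LHet and 3.00% of 3RHet, against 2.60% of 2L, 1.87% of 2R, 2.21% of 3L and 1.64% of 3R.

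The end of an arm next to the centromere lies nearest the heterochromatin around it. The last 2 Mb of peak-bearing sequence on that side was therefore taken from X, 2L, 2R, 3L and 3R. This second comparison was chosen after the list was seen. Where heterochromatin begins on the arm sequences was not determined, so the windows may themselves hold some of it. These 5 windows held 311 peaks, or 34.0 per Mb between their outermost peaks, with 43.7 per Mb beside the centromere of 3L, 41.0 for 2L, 35.9 for X, 28.5 for 3R and 19.9 for 2R. The windows of 2L and 3L were thus about as dense as 2RHet, while that of 2R was close to the 2R arm as a whole. Peaks covered 3.96% of the span of the windows, against 3.04% for all heterochromatin. By window the coverage was 6.74% for 2L, 4.25% for 3L, 3.73% for X, 2.65% for 3R and 2.21% for 2R. Coverage above that of whole arms was thus not particular to heterochromatin.

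Median scores were lower than on the matching arm on every heterochromatin sequence that held more than 2 peaks. The score is the caller's own value, and it ranks peaks within this list but is not a measure of occupancy. The median was 16.7 on 2LHet (interval 14.61 to 21.84), against 22.76 on 2L (interval 20.65 to 24.0). It was 15.12 on 2RHet (interval 13.36 to 16.17), against 19.2 on 2R (interval 17.52 to 21.84). It was 14.35 on 3LHet (interval 12.88 to 15.12), against 19.78 on 3L (interval 18.63 to 20.95), and 15.64 on 3RHet (interval 13.12 to 17.79), against 21.54 on 3R (interval 20.07 to 23.06). All 4 medians were below that of the matching arm, and the intervals of the pair did not overlap on 2R, 3L or 3R, while those of 2LHet and 2L did. Chromosome 4, counted among the arms, had 32 peaks with a median of 14.735 (interval 11.93 to 19.48), as low as on the heterochromatin sequences.

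**Figure D1:**
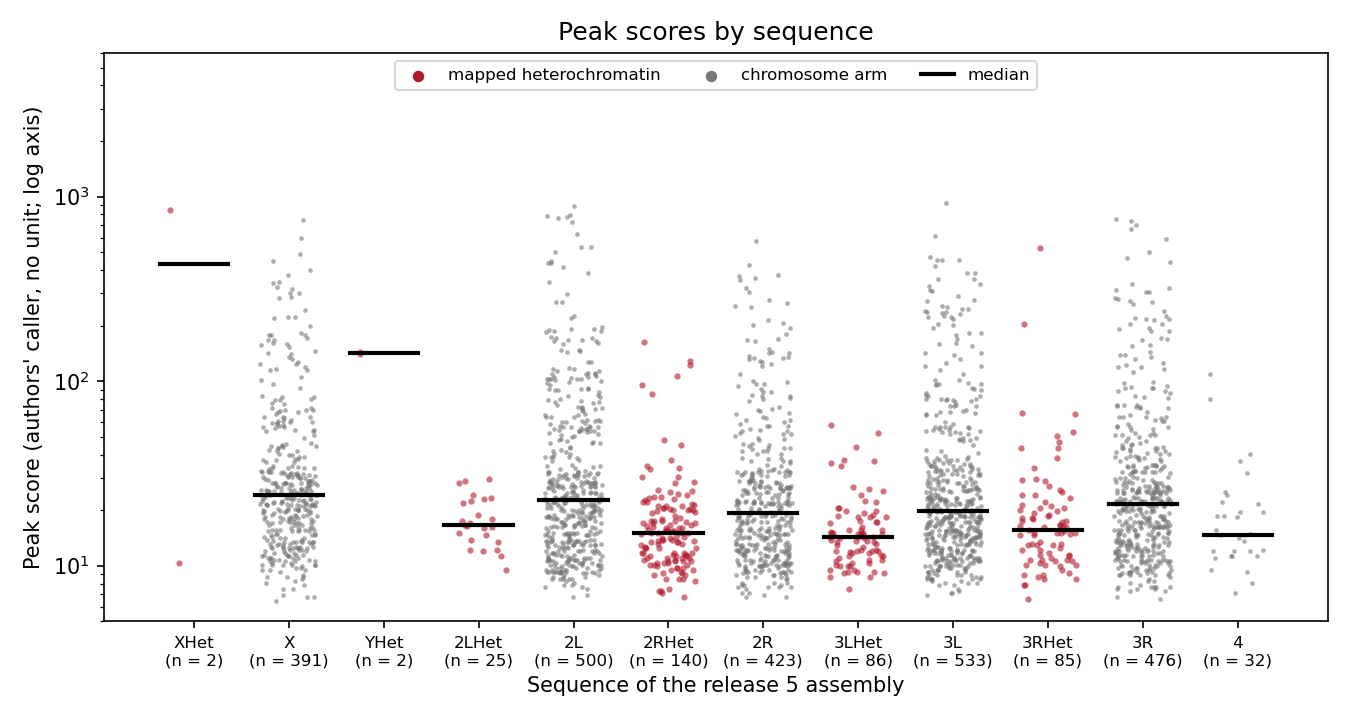
Peak score on a log axis (no unit) for each heterochromatin sequence (red) beside its chromosome arm (grey); each point is 1 peak and the bar is the median. The medians of 2LHet, 2RHet, 3LHet and 3RHet lie between 14.35 and 16.7, below those of 2L, 2R, 3L and 3R, while XHet and YHet have 2 peaks each.

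Over all heterochromatin peaks the quartiles of the score were 11.24 and 20.65, and the 90th percentile was 30.25. On all arms they were 13.36 and 37.205, with a 90th percentile of 101.988. The lower quartiles lie close together, and the distance widens towards the top. In heterochromatin 17 of 340 peaks scored 50 or more (5.00%, interval 3.14 to 7.86%), against 477 of 2355 on the arms (20.3%, interval 18.7 to 21.9%) and 23.4% of the whole list. A score of 100 or more was reached by 9 heterochromatin peaks (2.65%, interval 1.40 to 4.95%), against 240 arm peaks (10.2%, interval 9.03 to 11.5%) and 9.79% of the whole list. Both shares were lower in heterochromatin, with intervals that did not overlap those of the arms. On 2LHet 0 of 25 peaks reached 50, which allows a share of up to 12% by counting error.

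The centromere-side windows of the arms had a median score of 15.9 (interval 14.86 to 17.79), close to the 15.12 of heterochromatin (interval 14.35 to 15.64), and the remainder of the arms had 21.995. With these windows as the comparison the difference in median, heterochromatin minus arms, was -0.78, and with all arm peaks it was -6.12. Against all arms it was -9.94 after peaks with gaps under 500 bp were joined and -3.94 among peaks under 1 kb wide. The upper part of the windows' scores was still higher, with 46 of 311 peaks at 50 or more (14.8%, interval 11.3 to 19.2%), a share whose interval does not overlap that of heterochromatin. Among the windows the median was 20.65 for 2L, 17.23 for X, 15.25 for 3L, 15.12 for 3R and 14.86 for 2R.

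The 10 highest-scoring heterochromatin peaks were spread over XHet, YHet, 2RHet and 3RHet. The first was XHet:19-772, 754 bp wide and scoring 847.16, which ranked 7 in the whole list and began 18 bases after the first base of its sequence. The second was 3RHet:2308109-2308672, 564 bp wide, scoring 523.45 and at rank 130. It was the last peak on 3RHet, and 228 kb without a peak lay before it. The third, 3RHet:1181724-1182115, scored 204.13 over 392 bp. The first 2 stand well apart, while the third was followed by a score of 163.26.

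On 2RHet the highest score, 163.26, belonged to the widest peak of all heterochromatin, 2RHet:31414-37112, at 5699 bp. A narrow peak of 341 bp with a score of 106.25, 2RHet:30681-31021, lay 392 bp before it. Another pair among the 10 also lay side by side, 2RHet:1426746-1427144 (399 bp, score 129) and 2RHet:1427525-1429304 (1780 bp, score 122.6), 380 bp apart. The last of the 10 was 2RHet:3181797-3183413, 1617 bp wide with a score of 94.92. On 3LHet no peak reached 100, and the highest was 3LHet:1834475-1838765, with 57.91 over 4291 bp. On 2LHet the highest was 2LHet:216009-219274, with 29.56 over 3266 bp.

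The Y chromosome was represented by YHet:4490-4841 (352 bp, score 144.58) and YHet:137115-137441 (327 bp, score 139.96). Both were narrow, both scored about alike, and both ranked among the 6 highest in heterochromatin, with 132 kb between them. The other XHet peak, XHet:35671-35871, was 201 bp wide, the narrowest width in the list, and scored 10.35. The XHet pair thus held the highest score in heterochromatin and 1 of the lower ones, at rank 282 of 340.

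Several of the high scores lay next to each other. The 17 peaks scoring 50 or more lay in 11 regions, where a region joins peaks separated by gaps under 5 kb. Of these regions 4 held 2 or more such peaks, together 10 of the 17. Besides the pair on 2RHet at 30681 to 37112, they were 3 peaks at 2RHet:1422738-1429304 with scores of 85.57, 129 and 122.6, 3 at 3RHet:1950662-1957205 with 67.01, 66.06 and 52.69, and 3RHet:1175800-1182115. In that last region, peaks of 50.63 and 204.13 flanked 1 of 46.84 that was 2674 bp wide. None of the regions with 5 or more peaks held a score of 50 or more, a count of 0 of 17, beside 11 of all 131 regions. Those 17 regions held 103 of the 340 peaks (30.3%). Of all 340 peaks, 41 were alone in their region (12.1%), so sharing a region is usual here. How often high scores share a region was not counted for the arms or the centromere-side windows.

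Widths were described next. Heterochromatin peaks ran from 201 to 5699 bp. Their median width was 456.5 bp (interval 408 to 536 bp), with quartiles of 302 and 872.75 bp. Arm peaks had a median of 575 bp (interval 551 to 593 bp), quartiles of 347.5 and 1030 bp and a maximum of 11621 bp. By sequence the median was 387 bp on 2LHet against 587 bp on 2L, 465 bp on 2RHet against 529 bp on 2R, 439 bp on 3LHet against 591 bp on 3L, and 547 bp on 3RHet against 562.5 bp on 3R. All 4 heterochromatin medians were the smaller of their pair, by little on 3RHet, but only the intervals of 3LHet (333 to 531 bp) and 3L (543 to 630 bp) did not overlap.

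The direction of the width difference depended on the peaks taken. Among peaks at or above the list's median score (the top 50%), the 73 heterochromatin peaks had a median width of 1026 bp, against 766 bp for arm peaks. When neighbouring peaks with gaps under 500 bp were joined, the medians were 635 bp in heterochromatin and 602 bp on the arms. The smaller widths in heterochromatin thus hold for the list as deposited and not for these 2 other sets.

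Narrow peaks were more common and broad ones rarer than on the arms, but not than in the whole list. Peaks under 400 bp made up 149 of 340 in heterochromatin (43.8%, interval 38.6 to 49.1%), against 771 of 2355 on the arms (32.7%, interval 30.9 to 34.7%) and 46.8% of the whole list. Peaks of 2 kb or more numbered 20 (5.88%, interval 3.84 to 8.91%), against 304 on the arms (12.9%, interval 11.6 to 14.3%) and 3.45% of the whole list. The centromere-side windows, with 47 of 311 (15.1%, interval 11.6 to 19.5%), had as many broad peaks as the arms and more than heterochromatin. Their median width, 545 bp, had an interval of 493 to 631 bp, which overlaps that of heterochromatin.

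The 10 widest heterochromatin peaks were 3266 to 5699 bp wide. After 2RHet:31414-37112 came 3LHet:615558-620519 (4962 bp, score 44.02), 3RHet:1392699-1397427 (4729 bp, score 33.77), the 3LHet peak of 4291 bp already named, and 3LHet:667049-671230 (4182 bp, score 52.27). The others were 2RHet:1271066-1275028 with a score of 34.49, the neighbours 3RHet:170048-173611 and 3RHet:173782-177094 with 43.62 and 38.19, which lay 170 bp apart, 2RHet:840845-844181 with 24.31, and the 2LHet peak of 3266 bp. Of these 10, 3 scored 50 or more, and all 10 scored above the heterochromatin median. A neighbour within 500 bp was found for 7 of the 10. Among all heterochromatin peaks the share was 60.6%, so a close neighbour was usual and does not set the widest peaks apart.

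Wider peaks had higher scores in heterochromatin. Spearman's rho between them was 0.63 over the 340 peaks, 0.52 over the arm peaks and 0.69 over the centromere-side windows. It is given as a description, since peaks share their libraries and their neighbours. The median score in heterochromatin was 11.93 below 400 bp and 14.86 between 400 and 600 bp. It reached 18.35 between 600 and 1000 bp and 20.65 between 1 and 2 kb. It was 26.56 for the 9 peaks of 2 to 3 kb and 38.19 for the 11 peaks of 3 kb or more. In the same classes the arm medians were 12.4, 23.215, 24.0, 23.06, 27.88 and 34.13. Against all arms, the medians were thus farthest apart at 400 to 1000 bp. Against the centromere-side windows they were not: the medians there were 14.86 and 20.215 in the classes between 400 and 1000 bp, and 56.15 for the 32 peaks of 3 kb or more (interval 40.86 to 99.72), above the heterochromatin value for that class (interval 28.88 to 57.91), with intervals that overlap.

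At those widths of 400 bp to 1 kb, 2 of 126 heterochromatin peaks scored 100 or more (1.59%, interval 0.436 to 5.60%), against 166 of 977 arm peaks (17.0%, interval 14.8 to 19.5%). The whole list had 14.5%. In the centromere-side windows the count was 10 of 129 (7.75%, interval 4.26 to 13.7%), between the other values, with an interval that overlaps that of heterochromatin. The 2 heterochromatin peaks were XHet:19-772 and 3RHet:2308109-2308672. On 2LHet, 2RHet and 3LHet no peak of this width reached 100.

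**Figure D2:**
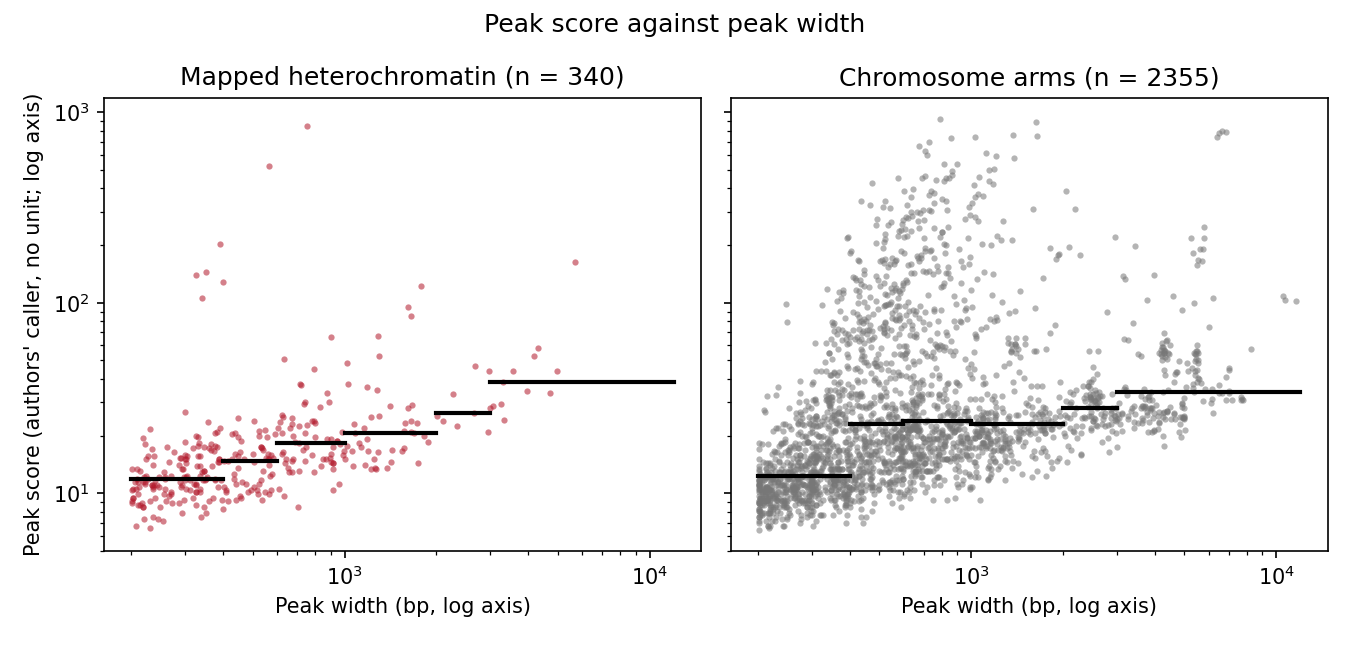
Peak score against peak width, both on log axes (score without unit, width in bp), for heterochromatin (left, red) and chromosome arms (right, grey); each point is 1 peak and black bars are medians within the 6 width classes. At 400 bp to 1 kb the arms have 166 peaks scoring 100 or more and heterochromatin has 2.

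Among the 149 narrow heterochromatin peaks of under 400 bp the scores were split. The 5 highest were 204.13, 144.58, 139.96, 129 and 106.25, the 2 YHet peaks among them, and the next was 26.88. Between 40 and 100 there were 0 of 149, which allows a share of up to 2.01%, against 40 of 771 on the arms (5.19%, interval 3.83 to 6.99%) and 6.70% of the whole list. At 100 or more there were 5 of 149 in heterochromatin (3.36%, interval 1.44 to 7.61%), against 8 of 771 on the arms (1.04%, interval 0.527 to 2.03%) and 3.96% of the whole list. At 100 or more the intervals of heterochromatin and the arms overlap. The gap between 40 and 100 was chosen after the scores were seen. The centromere-side windows had 1 of 103 between 40 and 100, so this range was nearly empty there too. At 100 or more they had 2 of 103 (1.94%).

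Heterochromatin peaks lay closer together than arm peaks. The median gap between neighbouring peaks was 1.09 kb in heterochromatin (334 gaps), against 11.2 kb on the arms (2349 gaps). It was 0.773 kb on 2RHet, 1.29 kb on 3RHet, 1.46 kb on 3LHet and 2.67 kb on 2LHet, against 9.69 kb for the arm 2R, 17.8 kb for 3R, 9.33 kb for 3L and 10.0 kb for 2L. The median gap on each heterochromatin sequence was thus well under that of its arm. The centromere-side windows had 1.51 kb, near the heterochromatin value, and the remainder of the arms 13.8 kb.

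The shortest gaps were about as frequent in both. Gaps under 100 bp made up 11.4% in heterochromatin and 11.1% on the arms, and no gap in either was under 50 bp. Gaps under 500 bp were 129 of 334 (38.6%, interval 33.6 to 43.9%), against 735 of 2349 (31.3%, interval 29.4 to 33.2%). Gaps under 5 kb were 209 of 334 (62.6%, interval 57.3 to 67.6%), against 1062 of 2349 (45.2%, interval 43.2 to 47.2%). Against all arms, gaps were thus more often short in heterochromatin at both limits. The centromere-side windows were close to heterochromatin, with 41.5% of gaps under 500 bp (interval 36.1 to 47.1%) and 56.2% under 5 kb (interval 50.6 to 61.7%), and both intervals overlap those of heterochromatin. Among peaks of the top 50% by score, 34.3% of gaps in heterochromatin were under 5 kb (23 of 67, interval 24.1 to 46.3%), against 24.6% on the arms (280 of 1139, interval 22.2 to 27.2%), so these intervals overlapped. With gaps under 500 bp joined the share was 39.0% in heterochromatin (interval 32.6 to 45.8%) and 20.3% on the arms (interval 18.4 to 22.3%).

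**Figure D3:**
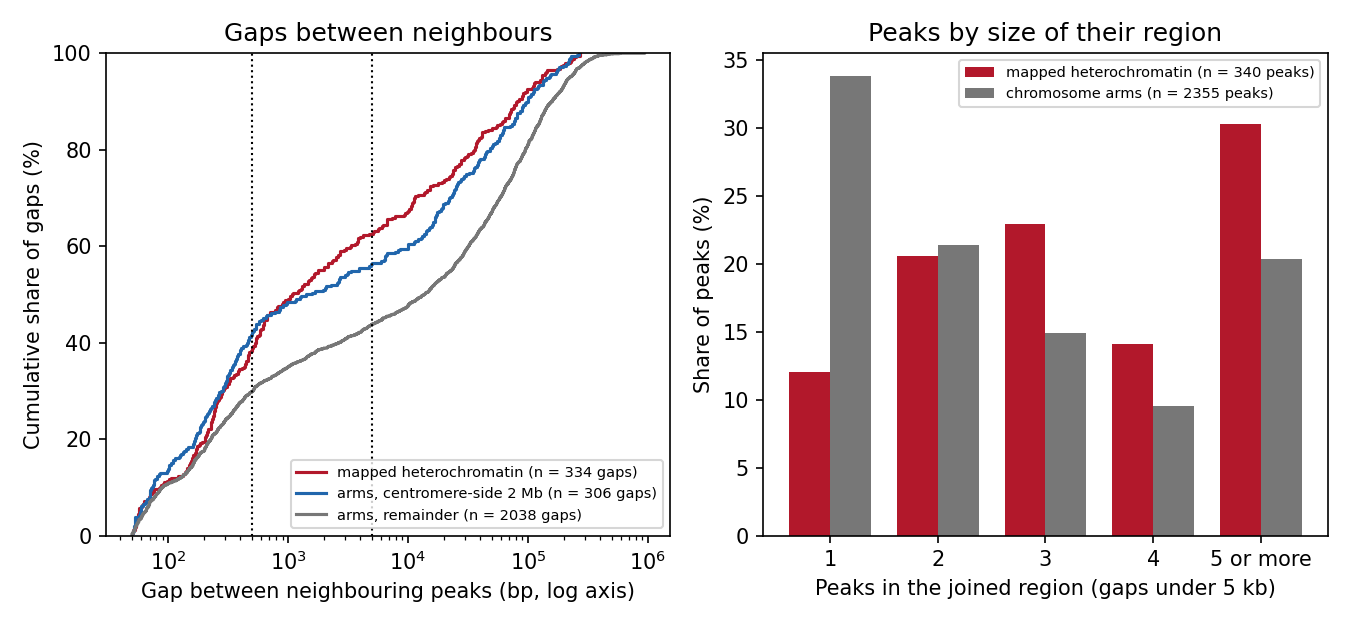
Left, cumulative share of gaps between neighbouring peaks (%) against gap length (bp, log axis) for heterochromatin, the centromere-side 2 Mb of the arms and the remainder of the arms, with dotted lines at 500 bp and 5 kb. Right, share of peaks (%) by the number of peaks in their joined region; peaks alone in their region are 12.1% in heterochromatin and 33.8% on the arms.

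Joining gaps under 5 kb gave 131 heterochromatin regions, or 15.7 per Mb, against 1293 regions on the arms, or 10.8 per Mb. A region held 2.60 peaks on average, against 1.82 on the arms. By region, then, the densities were nearer to each other than by peak. Of the heterochromatin regions 41 were single peaks (31.3%), against 797 on the arms (61.6%). At the other end, 17 regions of 5 or more peaks held 103 peaks (30.3% of heterochromatin peaks), against 71 regions with 479 peaks (20.3%) on the arms. The centromere-side windows lay nearer to heterochromatin in regions per Mb (15.2), peaks per region (2.24) and the share of peaks in regions of 5 or more (27.0%). Their share of single regions, 48.2%, lay between the other values and nearer to that of the arms.

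The fullest region was 2RHet:1256107-1278719, where 12 peaks with scores of 8.47 to 34.49 covered 11.7 kb of 22.6 kb. It contained the 3963 bp peak named above. Next came 2RHet:2821601-2831564 with 9 peaks, a median score of 17.52 and a highest of 48.08. The third, 3LHet:2138555-2145586, held 7 peaks that were all under 600 bp wide and scored at most 18.63. The next 5 were tied at 6 peaks each, 2 on 2LHet, 2 on 3RHet and 1 on 3LHet. Peaks covered 20.6% of their length at 2LHet:2365-15906 and up to 80.3% at 3RHet:2076762-2080540. The highest score in any of these 5 was 29.56.

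The median score hardly varied with the distance to the next peak in heterochromatin, unlike on the arms. The median score was 15.38 for the 206 heterochromatin peaks with a neighbour within 500 bp, 14.61 for the 93 with one at 500 bp to 5 kb and 14.1 for the 41 farther from any other (interval 11.24 to 15.64). On the arms it was 18.63 for 1130 peaks, 19.2 for 428 and 30.94 for 797 (interval 27.54 to 33.77). By the median, the isolated peaks were thus the higher-scoring ones on the arms and not in heterochromatin. The centromere-side windows were not split in this way. The classes also differed in median width, in the same order 550.5, 377 and 336 bp in heterochromatin and 729, 461 and 462 bp on the arms. The part of width in these scores was not tested.

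The share scoring 50 or more was lowest among crowded peaks of both kinds. It was 4 of 206 heterochromatin peaks with a neighbour within 500 bp (1.94%, interval 0.758 to 4.89%), 7 of 93 with one at 500 bp to 5 kb (7.53%, interval 3.69 to 14.7%) and 6 of 41 isolated ones (14.6%, interval 6.88 to 28.4%). On the arms it was 71 of 1130 (6.28%, interval 5.01 to 7.85%), 114 of 428 (26.6%, interval 22.7 to 31.0%) and 292 of 797 (36.6%, interval 33.4 to 40.04%). All 4 peaks of XHet and YHet are isolated and 3 of them scored over 50. Without them the isolated heterochromatin peaks had 3 of 37 (8.11%, interval 2.80 to 21.3%), close to the middle class and overlapping the crowded one.

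Gaps of 100 kb or more were 25 of 334 in heterochromatin (7.49%, interval 5.12 to 10.8%), against 421 of 2349 on the arms (17.9%, interval 16.4 to 19.5%). The centromere-side windows were close to heterochromatin, with 29 of 306 (9.48%, interval 6.68 to 13.3%) and a longest gap of 268 kb, and the intervals overlap. The longest empty stretches in heterochromatin were 2RHet:2338096-2612151, 3RHet:428377-699839 and 3LHet:1510143-1761148, of 274, 271 and 251 kb, and the longest on 2LHet was 70.2 kb, against 942 kb for the longest on the arms. How far these stretches are assembly gaps or repeats to which no read was assigned was not tested. In bins of 0.5 Mb the count on 2RHet ran from 8 peaks at 2 to 2.5 Mb to 34 in the first bin, on 3LHet from 10 to 21, and on 3RHet from 8 to 23. The median score of the bins stayed between 12.54 and 18.35 on these 3 sequences.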

How the data were processed

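The deposited data are 1 peak list for the series, made by the authors. The tools MACS2, BWA and CASAVA (1.7.0.2 and 1.7.0.3) and the build BDGP5 are listed, per the submitters' processing notes, without their roles. The file header names FlyBase release 5, and the source column names MACS. The score of each peak is the one the authors deposited. Neither the header nor the labels state its statistic, its threshold or how the inputs and replicates entered the calls. Positions are 1-based, as deposited, and columns of other samples numbered 0.

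Members were the 340 rows whose sequence name ends in Het. The members, the lists and the limits were chosen with earlier results of these data known. Named peaks were the 10 highest-scoring, the 10 widest, the highest on each sequence, every XHet and YHet peak, and the 5 joined regions with the most peaks, which a tie at 6 peaks extended to 8. Other peaks named were chosen after their values were seen. A gap is the number of bases between neighbouring peaks. Intervals are 95% Wilson intervals for shares and binomial order-statistic intervals for medians, and the limit for a count of 0 is 3 counts. The joining of peaks was tested on simulated data. A release 6 gene table was not used, since its coordinates differ. Computations used Python 3.11.15, numpy 2.4.6, pandas 2.3.3, scipy 1.17.1 and matplotlib 3.10.9.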

Additional observations from a re-analysis of the deposited data

How the results depend on the processing

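Of 33 values under alternatives, 23 stayed within the interval of the value reported, 8 moved outside it and 2 changed sign. For the differences in median, that interval carries the counting error of the heterochromatin median alone, with the arm median held fixed. It is therefore narrower than an interval of the difference would be. The share of the list in heterochromatin, 3.44%, was 1.46% in the top 50% by score and 2.77% with gaps under 500 bp joined. The difference in median score, heterochromatin minus arms, was -6.12; it was -9.94 with gaps under 500 bp joined, -4.185 for peaks under 2 kb, -3.94 for peaks under 1 kb and -0.78 against the centromere-side 2 Mb of the arms. The difference in median width, -118.5 bp, was 260 bp in the top 50% by score and 33 bp with gaps under 500 bp joined. The share of gaps under 5 kb, 62.6%, was 34.3% in the top 50% by score and 39.0% with gaps under 500 bp joined, which removes short gaps by construction. The other causes were not tested. The share of heterochromatin peaks on 2RHet stayed within its interval under all 5 alternatives run for it. Leaving out 2RHet, run for the score, width and gap results alone, moved none of these 3 outside its interval, and leaving out XHet and YHet, or the fullest region, moved none of the 5 results. The comparisons with parts of the arms, with peaks under 1 kb and without XHet and YHet were added after the data were seen. No paired analysis was possible because per-library values were not part of the list, and no replicate could be left out. Read depth is unknown, so no limit from depth can be given.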

Other observations

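Scores repeated across peaks, in heterochromatin as elsewhere in the list. The 340 heterochromatin peaks had 115 different scores, and the 2355 arm peaks had 447. The most frequent score in heterochromatin, 15.12, was shared by 14 peaks and was also the median.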
